A study of Mus musculus with 3 samples.

Results

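The genes described here are 9 genes for proteins that neurons secrete or anchor at their surface and whose transcription is known as a late part of the response to neuronal activity: Nrn1, Bdnf, Vgf, Nptx2, Inhba, Npy, Penk, Scg2 and Pcsk1. They were chosen by name. All 9 were found, each in 1 row, among the 23934 gene symbols of the table. RNA came from the dentate gyrus of C57BL/6 mice aged 8 weeks, in a series on how neuronal activation alters chromatin and RNA in the adult brain. The 3 libraries carry the label E24 and replicate numbers 1, 2 and 3. Each was made from a single mouse, and the sample labels do not say what E24 stands for or name an allele, a treatment or a time. The values were deposited under a name with the tags WT and ECT, which the labels do not spell out either. The 3 libraries form 1 group, so no induction by activity could be measured.

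Granule neurons answer strong synaptic input in waves. Calcium entry first switches on genes for transcription factors such as Fos, Egr1 and Npas4, and a slower wave then includes genes for growth factors, neuropeptides and the granule proteins that package them. Most of the proteins in this set travel in dense-core vesicles. There the protease made from Pcsk1 cuts precursors, the granins made from Vgf and Scg2 are cargo, and peptides such as neuropeptide Y and the enkephalins are released on stimulation.

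Values are RPKM, read numbers scaled to gene length and to the mapped reads of the library, so levels of different genes share a scale, but the read depth is unknown. A limit of the table bears on every value that follows. Values that match between libraries often stand in different rows, and the gene names themselves are out of genomic order at 29.4% of adjacent rows. Each value below therefore belongs to a named row, and not with certainty to the gene. A name was asked to pass a first check: its 3 own-row values had to be 1 RPKM or more with the largest at most 1.5 times the smallest. That check was passed by 3241 of 24458 rows, or 13.3%, and by 1 of the 9 genes, Nrn1. Only rows at 1 RPKM or more in all 3 libraries could pass, which were 7913 rows, or 32.4%, and 5 of the 9 genes.

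Nrn1 encodes neuritin, a small protein held at the membrane by a lipid anchor that promotes neurite growth and synapse maturation. Its row (chromosome 13, 36817490 to 36826346, mm9) held 309.8, 298.6 and 322.9 RPKM in replicates 1, 2 and 3. The 3 animals lay close together, with a mean of 310.5 RPKM ± 12.2 (SD, n = 3) and a largest value 1.08 times the smallest. The row stood above 99.4%, 99.4% and 99.5% of all rows in the 3 libraries. Its lowest value exceeded the highest own-row value of any other gene of the set, 150.9 RPKM.

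Around the Nrn1 row nothing else came near that level. Among the 10 rows within 5 rows of it, the highest value was 20.2 RPKM, in the row named Prpf4b in replicate 2. Replicates 2 and 3 lay within 1.5-fold of each other at 9 of those 10 rows, while all 3 libraries did so at 2 of them. Replicate 1 thus differed from the others on both sides of Nrn1, but not at the Nrn1 row. Only 1.48% of all rows held the highest value within 5 rows in all 3 libraries, and 9.84% of the rows that passed the check did. Nrn1 was the only gene of the set to do so.

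**Figure D1:**
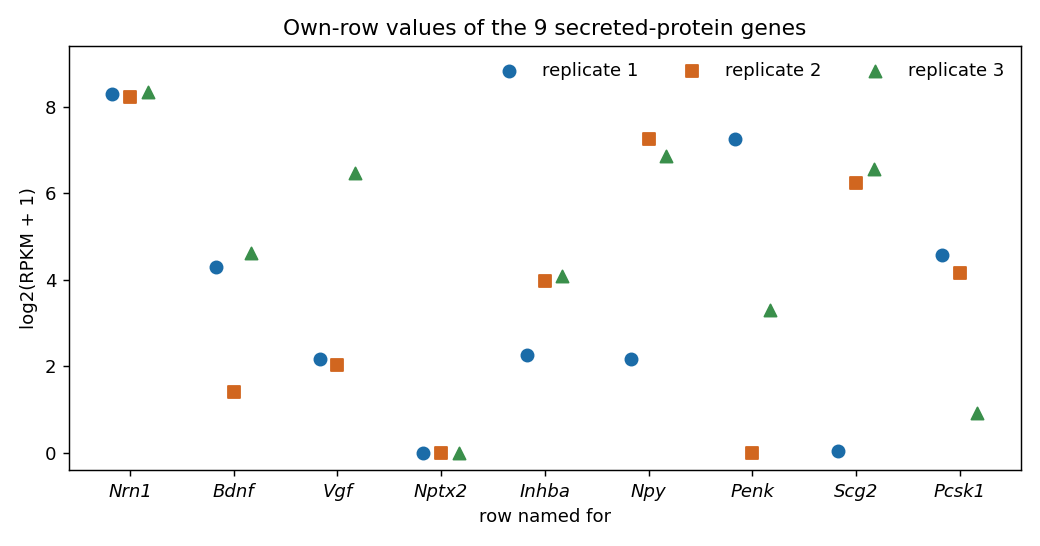
Own-row values on the log2(RPKM + 1) scale (vertical axis) for the rows named for the 9 genes (horizontal axis), with 1 point per library. The 3 Nrn1 points lie together at the top, the 3 Nptx2 points lie at 0, and the other genes each have points far apart.

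Agreement between libraries at a row can mean that they share an order there, and does not show that the name is in that order. How often values agree by coincidence was not tested. Passing the check with a lowest value at or above that of Nrn1 were 15 rows, Nrn1 included, and all 15 were also the highest within 5 rows in each library. Among the 15 names are those of abundant RNAs such as Actb, Eef2, Rpl11, Cox6c and Cox6a1. They also include the microRNA Mir5107 and the small nucleolar RNA Snord42a. The row of the translation factor gene Eef1a1, one of the most abundant RNAs of most cells, passed the check at 3.44, 3.95 and 3.16 RPKM, with up to 183, 1411 and 1369 RPKM within 5 rows. These rows were chosen after their values were seen. The level near 310.5 RPKM was thus shared by 3 animals at this place in the table, and the files alone do not tie it to the Nrn1 gene.

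The secreted growth factors came next in the order of roles. Bdnf encodes the neurotrophin that acts through the receptor TrkB and strengthens synapses. Its row (chromosome 2, 109514856 to 109567200, mm9) lists 9 transcription start sites, against 1 for each other gene of the set. It held 18.5, 1.65 and 23.5 RPKM. Replicates 1 and 3 lay within 1.27-fold, and replicate 2 was far lower. A matching value of replicate 2, 20.2 RPKM, stood 2 rows away in the row named Ryr3. The Bdnf name itself stood 78 rows from the place its coordinates give it on chromosome 2, among rows whose genes lie megabases further along. The other 8 names stood 3 to 12 rows from theirs, and the median over the table was 7. The highest values within 5 rows were 121, 98.2 and 94.4 RPKM, in the rows named 1700054M17Rik and, for the last 2, Spred1.

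Inhba encodes the subunit of activin A, a TGF-beta family ligand that is made by active neurons and protects them. Its row (chromosome 13, 16106307 to 16119044, mm9) held 3.76, 14.7 and 16.0 RPKM. Replicates 2 and 3 lay within 1.09-fold, and replicate 1 was the low one. A value of replicate 1 that matched both, 19.0 RPKM, stood 5 rows away in the row named Nid1. Of the 10 other rows within 5 rows, 3 passed the check. The row named Rala, 4 rows further on, held 22.7, 21.7 and 21.2 RPKM, the highest level within 5 rows at which the 3 libraries agreed in a single row. The row named Psma2 held 93.2 and 79.8 RPKM in replicates 1 and 2, but 21.2 RPKM in replicate 3.

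Among the neuropeptide precursors, Npy encodes neuropeptide Y, which dampens excitation and in the hippocampus marks a class of interneurons, and is induced in granule neurons by seizures. Its row (chromosome 6, 49772727 to 49779504, mm9) held 3.49, 150.9 and 114 RPKM. In replicates 2 and 3 this was the highest value within 5 rows, and the values lay within 1.32-fold. Replicate 1 held no value within 1.5-fold of both in that window. Its nearest in size was 85.3 RPKM in the next row, named Igf2bp3.

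Penk encodes proenkephalin, the precursor of the opioid enkephalin peptides. Its row (chromosome 4, 4060682 to 4065592, mm9) held 150.9, 0 and 8.79 RPKM, and no libraries agreed there. Within 5 rows the highest values of replicates 2 and 3 were 16.6 and 18.9 RPKM, both in the row named Fam110b. A little further out they held values near that of replicate 1. Replicate 2 had 145 RPKM 7 rows on, in the row named Impad1, and replicate 3 had 134 RPKM 6 rows on, in the row named 6330407A03Rik. These were singled out after the values were seen. The rows were different in each library, so a level of this size occurred near Penk in all 3 animals without a row in common. A higher level was also shared further out. Replicates 1 and 2 held 339 and 272 RPKM in the row named Rps20, 8 rows before Penk. Replicate 3 held 259 RPKM in the row named Wls, 7 rows before it. Agreement between libraries did not choose between these levels.

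**Figure D2:**
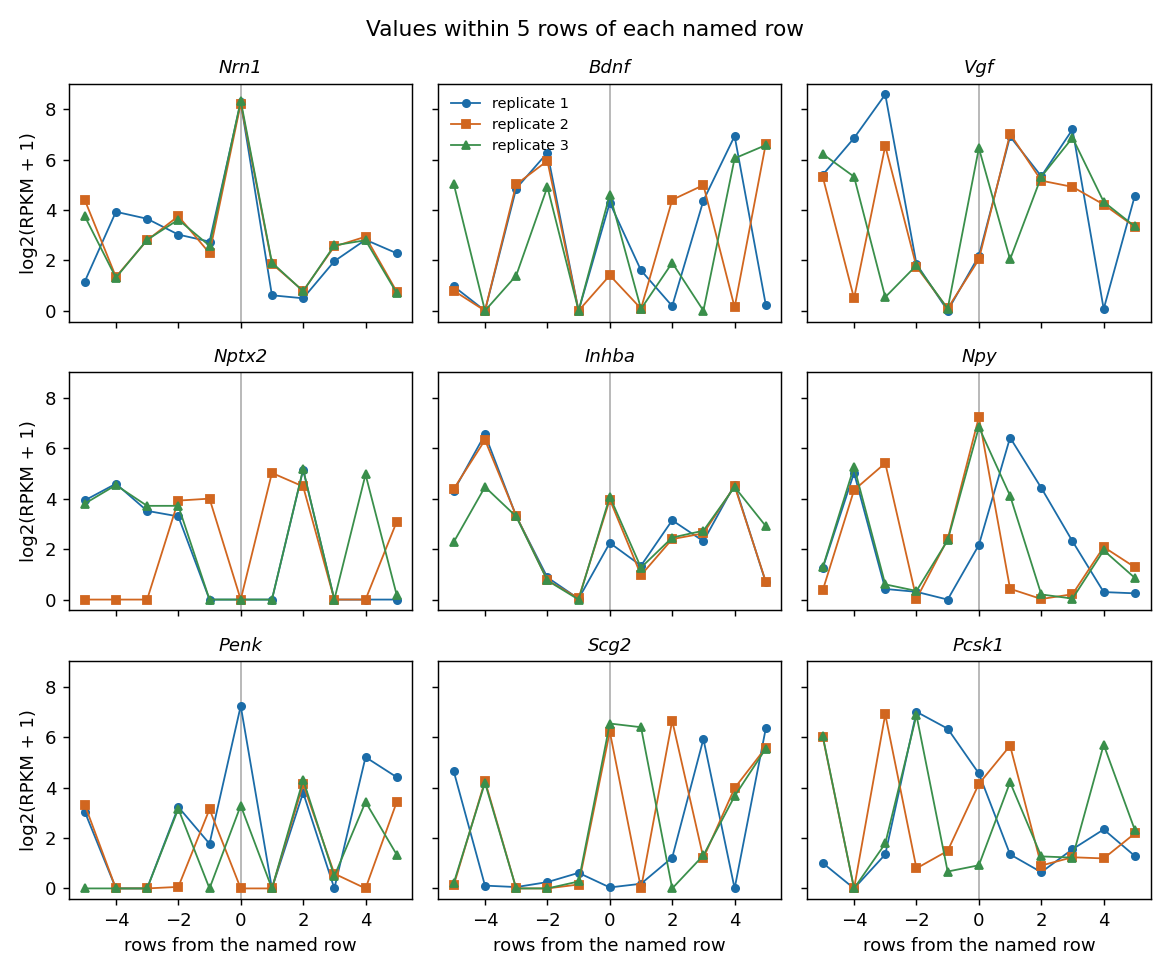
Values on the log2(RPKM + 1) scale (vertical axis) in the 11 rows centred on each named row (horizontal axis, rows from it), with 1 line per library. The lines meet in a single peak at the Nrn1 row, while around Bdnf, Vgf, Nptx2, Npy, Penk, Scg2 and Pcsk1 the 3 libraries do not all peak at the same row. Around Inhba all 3 peak 4 rows before it, in the row named Psma2, at 93.2, 79.8 and 21.2 RPKM.

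The granins are acidic cargo proteins of dense-core vesicles. Vgf encodes a granin-like precursor that is strongly induced by neurotrophins. Its row (chromosome 5, 137506164 to 137509221, mm9) held 3.53, 3.10 and 86.9 RPKM. Replicates 1 and 2 lay within 1.14-fold at a low level, and replicate 3 was 28.0 times the lowest value. A value of replicate 3 that matched the low level, 3.11 RPKM, stood in the next row, named 4933404O12Rik. That same row held 120.04 and 129 RPKM in replicates 1 and 2, and replicate 3 held 116 RPKM in the row named Plod3, 3 rows from Vgf. Both a low and a high level were thus shared near this name, and agreement between libraries did not choose between them. The highest single value there was 384 RPKM, in the row named Dtx2 in replicate 1.

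Scg2 encodes secretogranin II, the precursor of the peptide secretoneurin. Its row (chromosome 1, 79431243 to 79436665, mm9) held 0.0274, 73.9 and 92.6 RPKM. Replicates 2 and 3 lay within 1.25-fold, and replicate 1 was near 0. The only value of replicate 1 within 1.5-fold of both was 81.2 RPKM, 5 rows away in the row named Serpine2. The highest level shared by all libraries within 5 rows was 81.2, 100.01 and 83.5 RPKM, in the rows named Serpine2, Epha4 and Ap1s3.

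Pcsk1 encodes prohormone convertase 1, which cuts precursors such as proenkephalin, VGF and pro-BDNF inside the vesicle. Its row (chromosome 13, 75227434 to 75269946, mm9) held 22.6, 16.8 and 0.891 RPKM. Replicates 1 and 2 lay within 1.35-fold, and replicate 3 was low. A matching value of replicate 3, 17.6 RPKM, stood in the next row, named Glrx. Higher values were also shared nearby, at 128, 119 and 117 RPKM, in the row named Cast for replicates 1 and 3 and in that named Sdha for replicate 2.

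Nptx2 encodes neuronal pentraxin 2, a secreted lectin-like protein that clusters AMPA receptors at excitatory synapses onto interneurons. Its row (chromosome 5, 145306755 to 145318347, mm9) was listed at 0 in all 3 libraries, as were 18.8% of all rows. An exact 0 in these files can be a displaced or failed value and is not read as absence of the RNA. Within 5 rows the highest values were 34.6, 31.6 and 35.1 RPKM, in the rows named Tmem130, Tecpr1 and again Tmem130. Replicate 2 was listed at 0 in the rows 3 to 5 before Nptx2, where replicates 1 and 3 held 10.5 to 23.2 RPKM.

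Across the set, own-row values of 6 of the 9 genes agreed in exactly 1 pair of libraries, against 23.7% of all rows. A pair could agree only at 1 RPKM or more, and these rows stood higher than most. The median of the mean level was 31.2 RPKM for the 9 genes and 3.52 RPKM over all rows, so the shares are not like for like. The pair was replicates 2 and 3 for Inhba, Npy and Scg2, replicates 1 and 2 for Vgf and Pcsk1, and replicates 1 and 3 for Bdnf. Over the whole table that first pair also agreed most often, at 26.7% of rows, against 19.3% for replicates 1 and 2 and 20.6% for 1 and 3. For 5 of the 6 genes, all but Npy, the remaining library held a matching value within 5 rows. Of all rows of this kind 91.8% did, so the count is not particular to these genes. At least 1 level shared by the 3 libraries stood within 5 rows of all 9 genes, and of 88.6% of all rows.

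Most of the windows held a high value. The median over the 9 genes of the highest value within 5 rows was 121, 100.01 and 94.4 RPKM in the 3 libraries, against 44.1, 42.2 and 42.7 RPKM over all rows. For the highest shared level, taking the smallest of its 3 values, the median was 81.2 RPKM against 34.7 RPKM over all rows that had one. Below the median of all rows were the windows of Nptx2 in each library, of Penk in replicates 2 and 3, and of Inhba in replicate 3. These are descriptions of places in the table, to which neighbouring genes contribute.

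**Figure D3:**
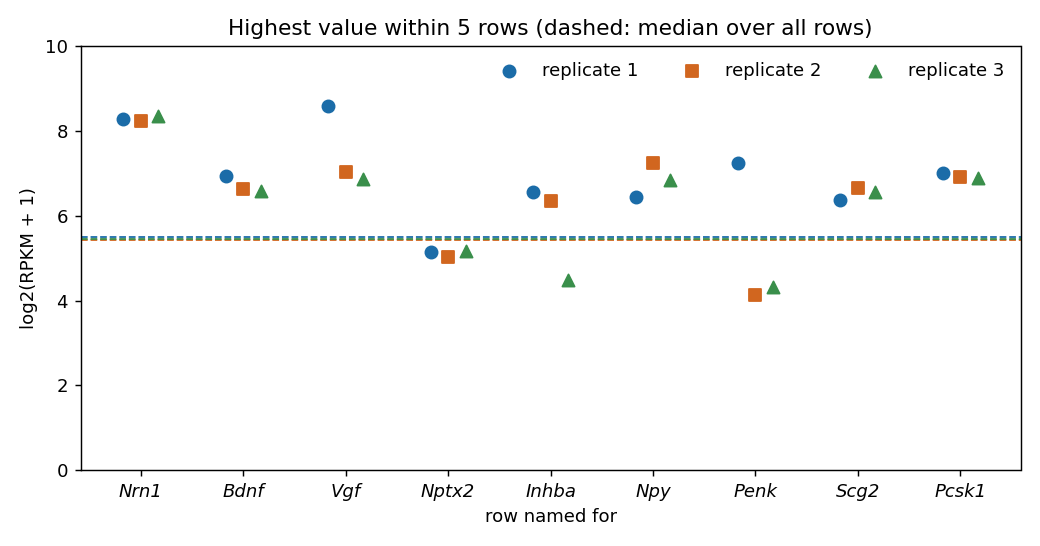
Highest value within 5 rows of each named row, the row itself included, on the log2(RPKM + 1) scale (vertical axis) for the 9 genes (horizontal axis), with 1 point per library. Dashed lines mark the median of the same quantity over all rows in each library (44.1, 42.2 and 42.7 RPKM), which lies above all Nptx2 points and below all points of Nrn1, Bdnf, Vgf, Npy, Scg2 and Pcsk1.

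The own-row levels were tested against 1 RPKM with limma on the log2(RPKM + 1) scale, fitted over all symbols. Nrn1 lay above that level by 7.28 with an SE of 0.28 (limma, adjusted p = 0.00178), and in 3 of 3 animals. It was the only 1 of the 9 genes to pass, against 18.9% of all symbols. Inhba missed the threshold, at 2.44 with an SE of 0.51 (limma, adjusted p = 0.0512), and passed with a pseudocount of 0.1 (limma, adjusted p = 0.0329). Over its alternatives the limma adjusted p of Inhba ran from 0.00725 to 0.541. Npy was at 4.42 with an SE of 1.36 (limma, adjusted p = 0.107) and Bdnf at 2.44 with an SE of 0.86 (limma, adjusted p = 0.136). These SEs are moderated by limma, so each draws on the spread of all symbols and not only on that of its own row. That spread holds any shift of rows as well as differences between animals, so the SEs do not measure the animals alone. Without replicate 1 the genes that passed were Nrn1, Inhba, Npy and Scg2, without replicate 2 Nrn1 and Bdnf, and without replicate 3 Nrn1 and Pcsk1 (limma, adjusted p from 0.00490 to 0.0338). Bdnf, Vgf, Inhba, Npy, Penk, Scg2 and Pcsk1 could not be put in an order of level, since the ranges of their own-row values all overlapped one another.

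Which names can be tied to their values follows from these results. Nptx2 was listed at 0 and Penk had no agreeing libraries, so neither name was tied to a level. For Bdnf, Vgf, Inhba, Npy, Scg2 and Pcsk1 the libraries agreed in 1 pair only, and their names were not tied to their values either. Whether such a gap between libraries is a difference between animals or a shift of rows cannot be told apart from the table. For Nrn1 the 3 libraries agreed, at the highest level of the neighbourhood, and whether the name belongs to that level was not tested.

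Rows of related genes were examined in the same way. Of 21 symbols of the dense-core vesicle pathway, which include Vgf, Scg2 and Pcsk1, 7 passed the limma test against 1 RPKM, against 18.9% of all symbols, and 0 had 3 agreeing values, against 13.3% of all rows. The row of the carboxypeptidase gene Cpe held 2.58, 859 and 807 RPKM, with 999 RPKM within 5 rows in replicate 1. The row of the convertase gene Pcsk2 held 12.3, 4.43 and 19.9 RPKM, and that of the granin gene Chgb held 20.0, 67.7 and 18.9 RPKM. These 3 were picked for their roles. Other rows of the list came closer to agreement. Ptprn2 held 45.7, 29.8 and 37.5 RPKM and Pcsk1n held 7.55, 4.88 and 6.71 RPKM, each just outside the limit for agreement. Scg5 lay further outside it, at 75.7, 42.2 and 42.4 RPKM, but was the highest within 5 rows in each library. Ptprn2, Pcsk1n and Scg5 were chosen after their values were seen.

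Of 26 symbols for receptors and partners of the secreted proteins, 9 lay above 1 RPKM by limma and 5 had agreeing values, beside the same shares of 18.9% and 13.3%. The highest of these were the activin receptor row Acvr1c, at 18.3, 17.6 and 14.8 RPKM, and the sorting receptor row Sorl1, at 13.5, 13.1 and 11.4 RPKM. Within 5 rows, values reached 42.4 RPKM for Acvr1c and 923 RPKM for Sorl1. The row of Ntrk2, which encodes the BDNF receptor TrkB, agreed at 3.46, 3.93 and 4.26 RPKM, and that of Nptx1, a close relative of Nptx2, at 6.15, 6.11 and 5.90 RPKM. Both had far higher values within 5 rows, up to 51.3 RPKM for Ntrk2 and 255 RPKM for Nptx1, and both were chosen after their values were seen.

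Other neuropeptide and growth factor rows had 2 of 21 symbols above 1 RPKM by limma and 1 with agreeing values, the angiogenic factor row Vegfa at 32.2, 24.6 and 26.7 RPKM. Within 5 rows of Vegfa, values reached 82.2 RPKM. Activity-regulated transcription factor rows had 7 of 20 above 1 RPKM and 6 with agreeing values. For both lists the shares over the whole table were again 18.9% and 13.3%. The highest agreeing rows of the transcription factor list were the AP-1 row Fosl2, at 21.2, 19.2 and 20.9 RPKM, and the row Creb1, at 8.24, 10.1 and 8.95 RPKM. Far higher values stood within 5 rows, up to 835 RPKM for Fosl2 and 258 RPKM for Creb1. The median of the mean level was 25.8 RPKM for the vesicle list, 8.64 for receptors, 2.76 for other peptides and 7.88 for transcription factors, against 3.52 RPKM over all rows and 31.2 RPKM for the 9 genes. In all, 12 of the 88 rows of these 4 lists agreed, a share near the 13.3% of all rows. Of the 12, 0 were the highest within 5 rows in every library, against 9.84% of all agreeing rows. The transcription factor row Jun, at 63.5, 96.3 and 85.3 RPKM, lay just outside the limit for agreement. Like Scg5, it was the highest within 5 rows in each library, and it was chosen after its values were seen.

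The labelled tissue could be checked by row names only within the same limit. Of 10 granule neuron marker rows, 0 had agreeing values, 0 passed the test against 1 RPKM (limma, 5 at an unadjusted p under 0.05), and 0 were listed at 0 throughout. By the same test 3 of 8 GABAergic interneuron rows, 4 of 6 CA3 or CA1 pyramidal rows and 5 of 6 microglial rows passed. The counts were 1 of 5 for mossy cells, 1 of 6 for oligodendrocytes, 1 of 5 for endothelial cells and 0 of 6 for astrocytes. The share over all symbols was 18.9%. The granule neuron rows summed to 497, 725 and 222 RPKM. Single rows weighed heavily in these sums. Dock10 held 333, 0.300 and 0.544 RPKM, and Neurod1 held 8.00, 285 and 8.43 RPKM. These rows were chosen after their values were seen, and such sums are not a check of the tissue. GABAergic interneurons also make Npy and Penk, and their 8 marker rows summed to 199, 230 and 172 RPKM, with 2 rows agreeing and none listed at 0 throughout. In replicate 3 the Sst row alone held 120 RPKM of that sum. Microglial marker rows agreed in 5 of 6 cases, with Csf1r listed at 0, and summed to 121, 112 and 104 RPKM, while astrocyte rows summed to 17.5, 201 and 202 RPKM. Without the Gfap row the astrocyte sums were 16.4, 1.77 and 15.6 RPKM. The part of other cell types in the values of the 9 genes was not tested.

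Promoter sequences from RefSeq (GRCm38.p6, another build than the table's) were at hand for 5 of the 9 genes, in 11 promoters, 7 of them of Bdnf. They were searched on both strands, over the 250 bases before the start site, for the cAMP response element TGACGTCA, the site through which CREB couples calcium and cAMP signals to transcription. Of the 5 genes, Scg2 and Pcsk1 had a match, each in its only promoter, and no promoter of Bdnf had one. Over all 32851 promoters the share with a match was 1.55%. That share counts promoters and not genes, and no enrichment was tested. The AP-1 letters TGANTCA, with any base at N, were found in 1 promoter of Bdnf, as TGAATCA, and in 6.75% of all promoters. This search was wider than one that fixes the central base. The 2 stretches with the response element are shown because they are a feature of sequence shared by a granule cargo gene and the gene of its processing enzyme. Capitals mark the element, which begins 68 bases before the start of Scg2 and 78 bases before that of Pcsk1.
Scg2 (chr1:79440072-79440109, GRCm38.p6, minus strand): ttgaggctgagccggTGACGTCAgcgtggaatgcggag
Pcsk1 (chr13:75089764-75089801, GRCm38.p6, plus strand): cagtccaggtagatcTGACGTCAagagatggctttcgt
A match is a description of the letters. With 1 group of animals, no change of either gene could be set beside it, and their rows at 0.0274, 73.9 and 92.6 RPKM and at 22.6, 16.8 and 0.891 RPKM are not tied to their names.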

How the data were processed

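Total RNA of the dentate gyrus was sequenced in 3 libraries, 1 per mouse. The deposited values are RPKM, made by the authors with TopHat2 and Cufflinks on mm9, per the submitters' processing notes (versions, annotation and filters: not given in the sources used here). A further 9 value columns match no listed sample and were not used. RPKM keeps no read numbers here, and without depth neither counting intervals nor floors were computed. Rows sharing a symbol were summed for the test, and log2(RPKM + 1) was tested against 1 RPKM by limma 3.58.1, run in R 4.3.3 (a model of the mean alone, variance trend, one-sided, Benjamini-Hochberg over 23934 symbols, no filter), after a check on simulated data. Agreement meant values of 1 RPKM or more within 1.5-fold, and windows were 5 rows on each side. Named were all 9 genes, window rows with the highest or a matching value, and the highest agreeing rows of each related list; others are stated as chosen later. The genes, lists and rules were chosen with earlier results of these data known. Alternatives changed the pseudocount, filter, level, scaling, variance trend, duplicate rows, tolerance, window and library set.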

Additional observations from a re-analysis of the deposited data

How the results depend on the processing

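The number of the 9 genes above 1 RPKM by limma was 1, and it was 2 (Nrn1 and Inhba) with a pseudocount of 0.1 or 0.5, with symbols under a mean of 0.1 RPKM left out, or with upper-quartile scaling, and 2 to 4 when 1 library was dropped. The number of all symbols above 1 RPKM was 4521, or 2049 when 5 RPKM was the level, and ran from 2686 (without replicate 3) to 4978 when 1 library was dropped. Own-row values agreed within 1.5-fold for 1 gene, Nrn1, also within 1.2-fold or 2-fold, and for 2 to 4 with a library left out, where fewer values have to agree. Rows of the table that agreed numbered 3241, or 1699 within 1.2-fold, and 4710 to 6526 with a library left out. A level shared within 5 rows was found near all 9 genes, and near 8 with a window of 2 rows. Mean own-row levels of the disagreeing rows rested on single libraries: that of Vgf was 31.2 RPKM and 3.32 without replicate 3, and that of Penk 53.2 RPKM and 4.40 without replicate 1. Those of Npy, Scg2 and Pcsk1 also moved by over 1.5 times, from 89.5 to 58.8 RPKM without replicate 2, from 55.5 to 37.0 without replicate 3 and from 13.4 to 8.83 without replicate 1. Where the setting itself did not change what was counted, as with scaling, the cause was not tested. No paired analysis was possible because there was no second group to pair with. What depth limits is not known, since RPKM does not hold it.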
